A study of Homo sapiens with 3 samples.

Results

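The beta-globin and alpha-globin gene clusters were examined for replication origins mapped by short nascent strand sequencing (SNS-seq) in HCT116 cells. Members were chosen by position alone, with no measured value in the rule. They are all calls in the beta-globin window of chromosome 11 from 5225000 to 5315000 and in the alpha-globin window of chromosome 16 from 195000 to 240000 (hg19), each with flanks of 200 kb that stop at the chromosome start. Over the 3 replicates these windows and flanks held 147 of the 691274 calls in the series, namely 119 MACS2 summits and 28 EPIC2 regions. The gene members are HBB, HBD, HBG1, HBG2 and HBE1 in the beta window and HBZ, HBA2 and HBA1 in the alpha window, listed in their order along the chromosome.

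HCT116 is an established human colorectal cancer cell line. All 3 replicates were made from untreated wild-type cells treated in the same way, and nothing in the labels sets them apart as conditions. SNS-seq isolates short, newly made DNA strands, whose 5′ RNA primer protects them from lambda exonuclease, so that sites where they pile up mark places where replication starts. For each replicate 2 kinds of call were at hand. EPIC2 gave broad regions, and MACS2 gave summits of 1 base whose score is -log10 of the q-value. Globin expression was not measured in these files.

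The globin clusters are a textbook pair for the study of replication and gene activity. HBB encodes the adult beta chain of haemoglobin, HBD the minor adult delta chain, HBG1 and HBG2 the fetal gamma chains and HBE1 the embryonic epsilon chain, while HBZ encodes the embryonic zeta chain and HBA1 and HBA2 the adult alpha chain. Their expression is largely confined to red blood cell precursors. The beta cluster lies among olfactory receptor genes, is driven by a locus control region beyond HBE1, and replicates late in cells that do not make haemoglobin. It also holds a classical mammalian initiation region between HBD and HBB. The alpha cluster lies near the tip of the short arm of chromosome 16, among widely expressed genes.

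The description of the beta cluster as gene-poor and of the alpha cluster as gene-rich was checked against RefSeq, counting in its own build, GRCh38. Within 200 kb of the outermost members, 13 protein-coding genes lay beside the beta cluster and 17 beside the alpha cluster. By this count the beta cluster was not clearly gene-poor. The alpha cluster lies near the chromosome start, so its lower side may be shorter than 200 kb, and the counts were not divided by length. Of the 17, 3 had provisional LOC names and 1 was HBQ1, itself a globin gene. All 13 neighbours of the beta cluster were olfactory receptor genes, such as OR51V1 below HBB and OR51B4 above HBE1. None of the 17 neighbours of the alpha cluster was one. They included NPRL3, a regulator of the growth-controlling kinase mTORC1, MPG, a DNA repair glycosylase, LUC7L, a splicing factor, and AXIN1, a scaffold of Wnt signalling. Others, such as RGS11, ARHGDIG and PDIA2, are not described here, and expression of the neighbours was not measured.

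The RefSeq promoter table held 1 of the 8 members, HBD. HBB, HBG1, HBG2, HBE1, HBA1, HBA2 and HBZ were not matched. The 250 bases before the HBD start are shown as the promoter of a member. Since HBD lies above HBB and is read from the minus strand, they lie on its HBG1 side, away from HBB, and do not show the sequence between HBD and HBB. They lie at chr11:5234484-5234733 on the minus strand of GRCh38.p14, a numbering that cannot be set beside the hg19 positions of the calls. Capitals mark matches, on either strand, of CCAAT, GATA and TATAA or ATAAA.

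HBD: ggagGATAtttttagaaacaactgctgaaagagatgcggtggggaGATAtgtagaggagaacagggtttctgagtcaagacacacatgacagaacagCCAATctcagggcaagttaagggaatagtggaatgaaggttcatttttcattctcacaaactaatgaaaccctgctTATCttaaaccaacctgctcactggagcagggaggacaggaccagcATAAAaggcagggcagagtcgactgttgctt

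This stretch lay below the median promoter in G and C content and in CG dinucleotides. It had 45.2% G and C, against a median of 58.0% over the 35116 promoters of the table, and 22.4% of promoters had less. It held 2 CG dinucleotides, against a median of 11, and 14.7% of promoters held fewer. No match was found for the G-quadruplex pattern of 4 runs of at least 3 G, spaced by 1 to 7 bases, which 23.5% of promoters hold. The single ATAAA lay 31 bases before the start, and TATAA or ATAAA occurs in 36.9% of promoters. CCAAT occurred once (32.0% of promoters hold it), GATA 3 times (45.6%) and CACCC not at all (54.7%). These matches describe the letters, and binding was not tested.

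Replicates differed in how many calls they held. Over chromosomes 1 to 22 and X replicates 1, 2 and 3 had 7.19, 2.07 and 5.34 summits per 100 kb, and EPIC2 regions covered 8.74%, 4.53% and 10.6% of bases in the same order. Values for the loci are therefore also given relative to the mean of their own replicate. Read depth is unknown.

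Neither globin cluster held a consensus origin. A consensus origin is a place where EPIC2 regions that hold a summit of their own replicate overlap between at least 2 replicates. The beta and alpha windows each had 0. Absence was not unusual for windows of these sizes, since 44.9% of all adjoining 90 kb windows and 34.7% of all 45 kb windows of the genome held one. The nearest consensus origin to the beta window lay 189.601 kb above it, at chromosome 11 from 5504601 to 5506400, and the nearest below lay 432.2 kb away. The nearest to the alpha window lay 120.201 kb above it, at chromosome 16 from 360201 to 362200, and no consensus origin lay between the alpha window and the chromosome start.

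At the HBB interval, calls were found in a single replicate. This interval, from 5246696 to 5248301 on chromosome 11, was taken as given for the classical HBB origin. Whether it covers the initiation region between HBD and HBB was not checked, as no hg19 annotation was used here, and the values below hold for the interval only. In replicate 3 an EPIC2 region from 5246201 to 5248000 covered 81.3% of it, with a score of 69.4, at percentile 72.2 of that replicate's regions. The summit inside this region, at 5246670 with a score of 5.02, lay 26 bases below the interval. In replicate 1 the nearest summit lay 11116 bases above the interval, at 5259417, and the nearest EPIC2 region 13896 bases below it. In replicate 2 the nearest summit lay 60498 bases below and the nearest EPIC2 region 90.7 kb above. Thus 1 of 3 replicates had a call that touched the HBB interval. A stricter q-value for summits could not change this, since no summit lay in the interval. The upper 50% of EPIC2 scores could not either, as the region was at percentile 72.2.

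Over the whole beta window, replicates 1 and 3 held 5 and 6 summits and replicate 2 held 0. Windows of 90 kb with at least 1 summit made up 88.1%, 71.5% and 83.9% of the genome in replicates 1, 2 and 3. Of all 33702 windows, with or without a summit, 50.7% and 67.9% held as many summits as the beta window or fewer in replicates 1 and 3, and 28.5% also held none in replicate 2. Density was 5.56, 0 and 6.67 summits per 100 kb in replicates 1, 2 and 3, or 0.773, 0 and 1.25 times the mean of the replicate.

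EPIC2 listed 1, 0 and 2 regions in the beta window in the same order, where 70.1%, 50.2% and 54.0% of 90 kb windows held at least 1. They covered 0.889%, 0% and 5.11% of its bases. Of all 90 kb windows, 39.4%, 49.8% and 61.8% had the same coverage or less. In replicate 1 the region lay from 5232001 to 5232800, with a score of 62.7, and held the strongest summit of the window, at 5232094. Its score of 20.3 was at percentile 97.3 of that replicate's summits. In replicate 3 the second region lay from 5299801 to 5302600, with a score of 35.7, toward the HBE1 side of the window, and held a summit at 5302462 with a score of 5.16.

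The other summits of the beta window scored between 1.99 and 7.83. In replicate 1 they lay at 5225019, 5259417, 5292718 and 5299953, with scores of 2.74, 4.03, 7.83 and 5.46. In replicate 3 they lay at 5225338, 5244813, 5265571 and 5272111, with scores of 5.04, 2.61, 4.47 and 1.99. Only the summit at 5299953 of replicate 1 fell in an EPIC2 region of another replicate, the region from 5299801 to 5302600 of replicate 3.

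No summit of the beta window matched between replicates. Of the 5 summits of replicate 1, 0 had a summit of replicate 3 within 250 bases, and of the 6 of replicate 3, 0 had one of replicate 1. Over chromosomes 1 to 22 and X these shares were 19.4% and 26.1%. By a limit of 3 counts, which is rough for so few summits, a count of 0 allows shares of up to 60% and 50%. A lower agreement than elsewhere was therefore not detectable here. The closest pair, at 5225019 and 5225338, lay 319 bases apart at the lower edge of the window. The strong summit at 5232094 had its nearest neighbour in another replicate 6756 bases away.

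**Figure D1:**
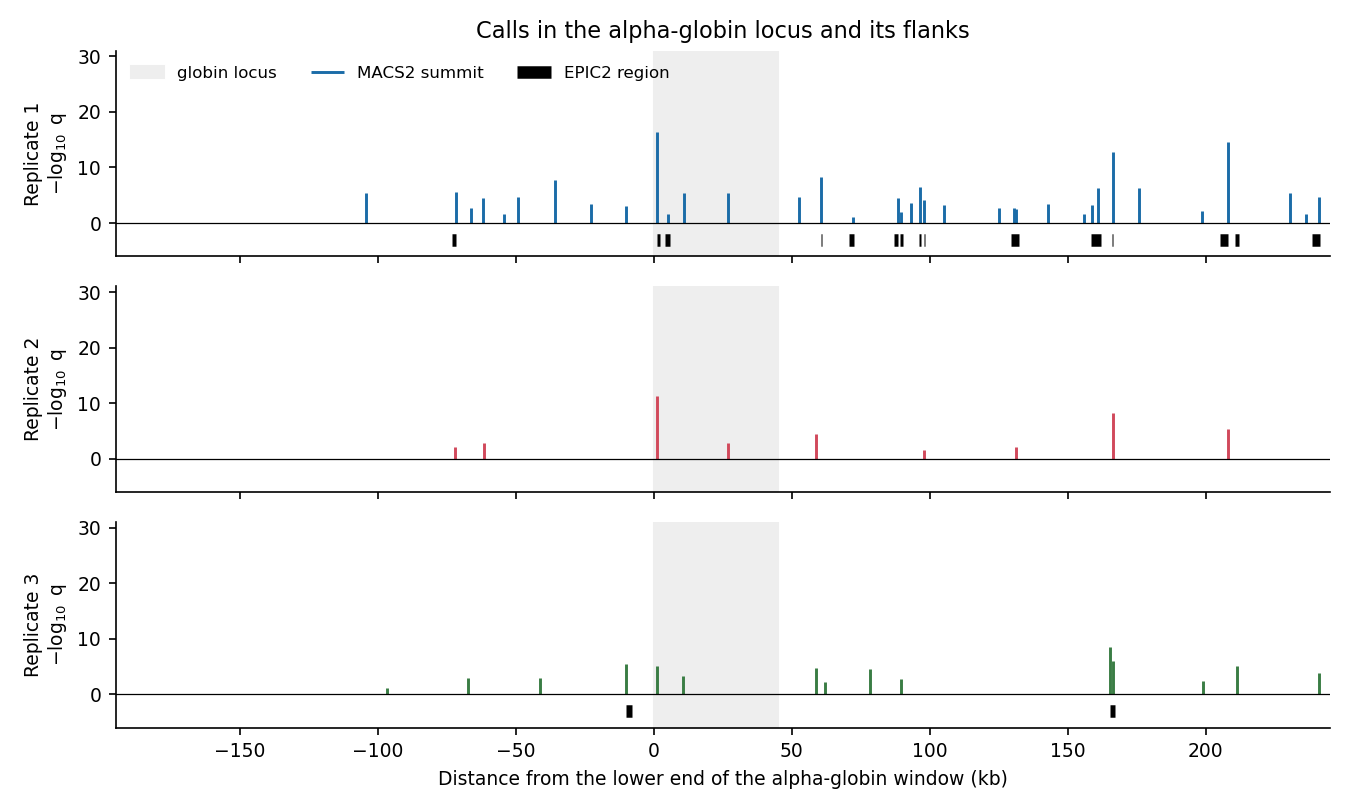
Calls in the alpha-globin window (grey) and its flanks, by distance in kb from the lower end of the window, with 1 panel per replicate. Vertical lines are MACS2 summits with their -log10 q as height and black bars are EPIC2 regions. A summit near the lower end of the window stands in all 3 panels, and EPIC2 regions crowd the right flank in replicate 1, where it had 12 against 0 in replicate 2 and 1 in replicate 3.

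The alpha window held a site called in every replicate. Replicates 1, 2 and 3 placed its summit at 196259, 196159 and 196321, a range of 162 bases. Scores were 16.4, 11.3 and 5.04, and each was the highest of its replicate in the window. Within their own replicates these scores were at percentiles 95.1, 88.9 and 67.5. In replicate 1 the site lay in an EPIC2 region from 196001 to 197200 with a score of 45.5. Replicates 2 and 3 listed no EPIC2 region there, so the site was not a consensus origin by the rule that both callers must call it.

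A second site was shared by replicates 1 and 2, with summits at 221884 and 221828, or 56 bases apart, and scores of 5.46 and 2.89. Replicate 3 had no summit within 250 bases of it. The summits at 206114 in replicate 1 and 205543 in replicate 3, with scores of 5.46 and 3.40, lay 571 bases apart. The summit at 200117 in replicate 1, with a score of 1.61, was the weakest of the window. HBA1 and HBA2 are near-identical copies, as are HBG1 and HBG2, and the placement of reads that fit both copies is not stated in the labels or methods. Calls inside these copies are uncertain for that reason.

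Altogether the alpha window held 4, 2 and 2 summits in replicates 1, 2 and 3, where 80.7%, 53.4% and 74.7% of 45 kb windows held at least 1. Density was 8.89, 4.44 and 4.44 summits per 100 kb, or 1.24, 2.14 and 0.833 times the mean of the replicate. Among all 45 kb windows, with or without a summit, 69.8%, 90.1% and 57.9% held as many or fewer. EPIC2 listed 2, 0 and 0 regions, where 57.8%, 36.4% and 44.1% of windows held at least 1, and covered 7.11%, 0% and 0% of bases. Of all 45 kb windows, 69.6%, 63.6% and 55.9% had the same coverage or less. The second region of replicate 1 lay from 199001 to 201000, with a score of 24.9, and held the weak summit at 200117.

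Several summits of the alpha window matched between replicates. In replicate 2 both summits, 2 of 2, matched replicate 1 within 250 bases, where 50.6% of all its summits did. Replicate 1 had 2 of 4 summits matched in replicate 2 and 1 of 4 in replicate 3, against 14.6% and 19.4% genome-wide. Of the 2 summits of replicate 3, 1 was matched in replicate 1 and 1 in replicate 2, against 26.1% and 5.87%. These shares rest on 8 summits and are given as a description.

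**Figure D2:**
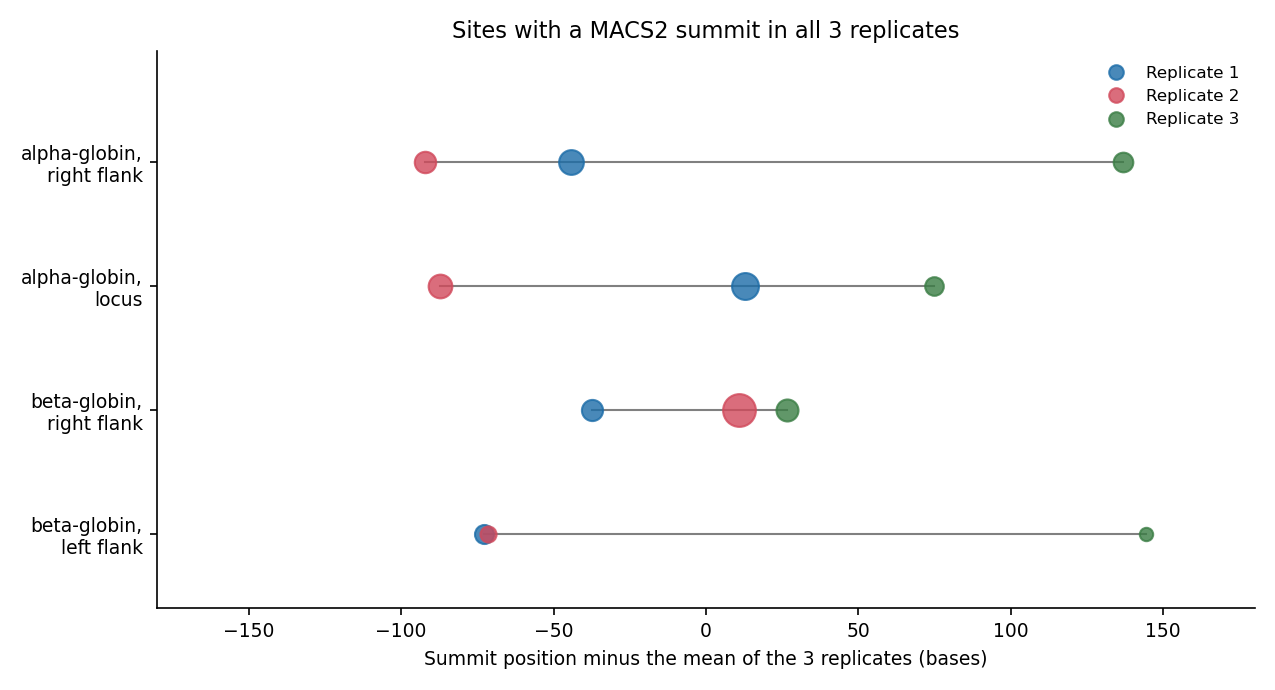
The 4 sites in the globin windows and flanks with a MACS2 summit in all 3 replicates, drawn as the distance in bases of each summit from the mean position of the site, with point area growing with -log10 q. The site of the right beta flank spans 64 bases and that of the alpha window 162 bases. None lies in the beta window, where replicate 2 had no summit.

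The question put to the pair was whether the cluster among olfactory receptor genes and the cluster with no such neighbour differ in origin calls. Summit density was higher in the alpha window in replicates 1 and 2, by 3.33 and 4.44 summits per 100 kb, and lower in replicate 3, with a difference of -2.22. The mean was 5.93 ± 2.57 (SD, n = 3) in the alpha and 4.07 ± 3.57 (SD, n = 3) in the beta window. The difference of 1.85 ± 3.57 (SD, n = 3) was smaller than the spread between replicates (exact paired permutation test, two-sided p = 0.5). Relative to the mean of each replicate, an alternative chosen after seeing the data, it was 0.730 with the same exact p of 0.5.

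EPIC2 coverage differed by 6.22 percentage points in favour of the alpha window in replicate 1, by 0 in replicate 2 and by -5.11 in replicate 3. Its mean difference was 0.370 ± 5.68 points (SD, n = 3), with an exact permutation p of 1, and became -2.56 points without replicate 1. Regions called by both callers differed by 0.370 ± 2.80 per 100 kb (SD, n = 3; exact permutation p = 1), and by -1.11 without replicate 1. No difference between the loci was therefore shown. With 3 replicates the smallest exact p is 0.25, so no difference could have passed a threshold of 0.05, and the Benjamini-Hochberg value over the 5 differences tested was 1 for each.

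**Figure D3:**
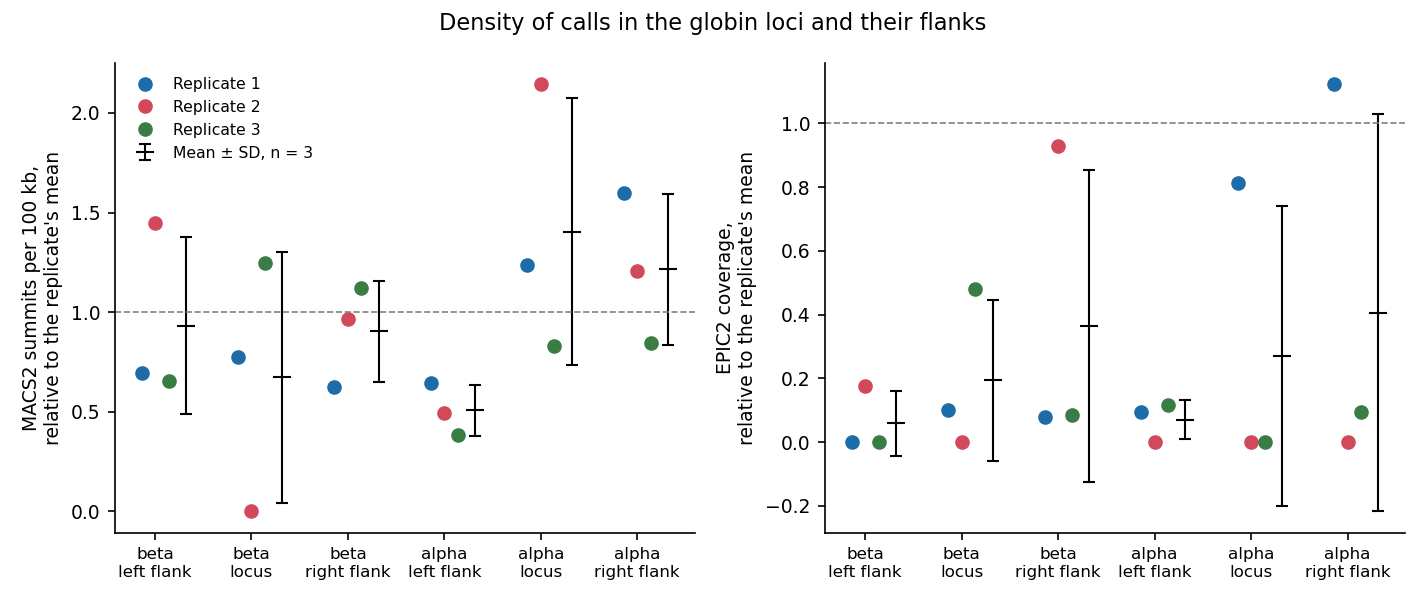
MACS2 summit density (left) and EPIC2 coverage (right) in the globin windows and their flanks, each divided by the mean of chromosomes 1 to 22 and X of the same replicate (dashed line at 1). Points are replicates and black bars are the mean ± SD (n = 3), which can reach below 0. The replicates overlap between the 2 loci in both panels. EPIC2 coverage lay below the replicate's mean in all windows except the right alpha flank of replicate 1, at 1.12. The median 90 kb window also lay below that mean, with 2.22%, 0.222% and 2% of bases covered in replicates 1, 2 and 3. A value below 1 was therefore usual for windows of that size.

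Each cluster was also set against its own flanks. The flanks of the beta window had 4.75, 2.50 and 4.75 summits per 100 kb in replicates 1, 2 and 3. The window exceeded them in 2 of 3 replicates, with differences of 0.806, -2.50 and 1.92 and a mean of 0.0741 ± 2.3 (SD, n = 3; exact permutation p = 1). It was -0.292 without replicate 1 and -0.847 without replicate 3. The alpha window exceeded its flanks in 3 of 3 replicates, by 0.788, 2.67 and 1.15 summits per 100 kb. The mean difference of 1.54 ± 0.999 (SD, n = 3) gave an exact permutation p of 0.25, the smallest that the design allows. It fell to 0.229 when the left flank was counted from the first call on the chromosome, and to 0.259 with flanks of 100 kb. The first 90 kb of chromosome 16 held no call in any replicate. With either setting the excess was no longer present in every replicate, and the exact permutation p was 0.75 for each.

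The flanks of the beta cluster, among the olfactory receptor genes, held 19, 10 and 19 summits in replicates 1, 2 and 3. Replicate 2 thus had 10 summits on both sides of the beta cluster and 0 within it. Of the sites called in at least 2 replicates, 3 lay in the left flank and 5 in the right flank, against 0 in the window. These counts are over 200, 200 and 90 kb and over 23, 25 and 11 summits of all replicates. In the window only replicates 1 and 3 could match, and the counts were not tested. The strongest of these sites lay in the right flank, with summits at 5504710, 5504758 and 5504774 in replicates 1, 2 and 3. Their scores were 7.83, 28.5 and 8.91, over a range of 64 bases. EPIC2 regions of replicates 1 and 2 covered it, and it was the only consensus origin of the beta window and flanks. A weaker site in the left flank, from 5162591 to 5162808, had summits in all 3 replicates with scores of 5.46, 2.89 and 1.20 and no EPIC2 region in any.

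The 2 flanks of the alpha cluster held different numbers of summits. The left flank, toward the chromosome end, held 9, 2 and 4 summits and the right flank 23, 5 and 9 in replicates 1, 2 and 3. Per 100 kb the right flank was the denser in 3 of 3 replicates, a comparison that was not tested. No replicate had a call before 90741 on chromosome 16, and counting that stretch lowers the density of the left flank. The densities of the 2 flanks were not compared without it. The share of the right flank that EPIC2 covered was 9.80%, 0% and 1.00% in the same order. The site called in all 3 replicates there had summits at 361430, 361382 and 361611, with scores of 12.9, 8.17 and 6.10, and EPIC2 regions of replicates 1 and 3. It was the only consensus origin of the alpha window and flanks. The site at 402996 in replicate 1 and 402955 in replicate 2, 41 bases apart, had scores of 14.6 and 5.35 and an EPIC2 region in replicate 1 alone.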

How the data were processed

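SNS-seq libraries of 3 replicates of untreated HCT116 cells were analysed from the deposited lists of calls. Per the methods and the submitters' processing notes, Bowtie2 2.3.4.2 was used by the authors for alignment to hg19. They removed duplicates with Picard 2.18.17, and called each replicate with MACS2 2.1.0.20151222 (q = 0.1) and EPIC2 (FDR = 0.1). The deposited MACS2 values are -log10 q and the deposited EPIC2 score, of a kind not given in the sources used here, served to rank regions within a replicate. No source used here names a control library or read depth. The methods describe the replicates as triplicate experiments, and p-values measure the spread between them. Independence is stated in the study's reporting summary for its experiments in general, and not in the methods for these libraries.

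Members and lists were chosen with earlier results of these data known. All EPIC2 regions, the strongest summits of each window and those nearest to HBB are named. EPIC2 ends were taken as the last base of a step of 200 bases, and positions count from 1. Overlaps needed 1 base and matching summits lay within 250 bases. Windows tiled for comparison ran from the first base to the last call of chromosomes 1 to 22 and X. Differences were tested by exact sign flips over replicates. The reference given was GRCh38, too short on chromosome 1 for the hg19 calls. It was used only for names, order and numbers of neighbouring genes and the HBD sequence, and calls were not assigned to other genes. The limit allowed by a count of 0 was 3 counts, and covers counting error only. Alternatives were a stricter q-value, EPIC2 scores, equal numbers of calls, window and flank widths, overlap rules and leaving out each replicate. Interval functions were tested on simulated calls. Python 3.11.15, numpy 2.4.6, scipy 1.17.1, pandas 2.3.3, statsmodels 0.14.6 and matplotlib 3.10.9 were used.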

Additional observations from a re-analysis of the deposited data

How the results depend on the processing

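The mean excess in summit density of the alpha window over the beta window, and over its own flanks, kept its sign under the 8 alternatives run for each. With the upper 50% of EPIC2 scores this was fixed in advance, as that setting leaves summits unchanged. Values lay between 0.556 and 3.89 (and at 0.730 relative to the mean of the replicate, in another unit) and between 0.229 and 1.91 summits per 100 kb, and no alternative could reach an exact p under 0.25. The excess of the alpha window over its flanks was not present in every replicate under some alternatives. These were flanks of 100 kb, the left flank from the first call, and a q-value of at most 0.01. Their exact permutation p was 0.75, 0.75 and 0.5 in the same order. The other mean differences turned sign. EPIC2 coverage, alpha minus beta, was -0.0741 points with the upper 50% of EPIC2 scores and -0.963 with equal numbers of calls, and lay between -2.56 (without replicate 1) and 3.11 (without replicate 3). The density of regions called by both callers, alpha minus beta, was -0.370 per 100 kb with a q-value of at most 0.01, -0.741 with equal numbers of calls and 0 with the upper 50% of EPIC2 scores, and lay between -1.11 (without replicate 1) and 1.67 (without replicate 3). Summit density of the beta window minus its flanks was -0.259 with flanks of 100 kb and lay between -0.847 (without replicate 3) and 1.36 (without replicate 2). The number of consensus origins rose from 0 to 1 in the beta and 2 in the alpha window with summits widened by 250 bases. The other 8 alternatives could only remove consensus origins, so their 0 says nothing about stability. Matching of summits over all pairs of replicates rose from 0% to 9.09% in the beta window within 1000 bases, and was 37.5% to 62.5% in the alpha window. The beta shares include pairs with replicate 2, which had no summit in that window, so the 2 windows are not alike here. Between replicates 1 and 3 alone, 1 of 5 and 1 of 6 beta summits matched within 1000 bases. For the changes between settings the cause was not tested. The differences above are paired within replicates, and with 1 group no replicate block between groups applies. With no read depth in the files, its part in the few calls of replicate 2 was not tested.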

Other observations

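Replicate 2 listed no EPIC2 region on chromosome 16 below 589601, where replicates 1 and 3 began at 121801 and 184801. Its summits began at 123071, and 9 of them lay in the alpha window and flanks. Of these 9, 8 had a summit of replicate 1 within 250 bases, or 88.9%, against 50.6% over chromosomes 1 to 22 and X. In the beta window and flanks 5 of its 10 summits did, or 50%.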
